A study of Mus musculus with 40 samples.

Results

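Btg2, Zfp36l1, Mapk14 and Mapkapk2 are followed here in mouse embryos treated with an alkylating drug. They are 4 of 6970 genes that had a probe with a single gene symbol on the arrays of the study. They were chosen by their treated-over-control ratios on these arrays, as genes of the stress kinase pathway and as early antiproliferative or mRNA decay genes. Those ratios are therefore a description, and no test of them is given. Each gene had 1 probe, that of Btg2 on array design 1 and those of Zfp36l1, Mapk14 and Mapkapk2 on array design 2.

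The treated embryos were cultured for 5 h at 37 °C with 40 µM 4-hydroperoxycyclophosphamide present throughout, a form of cyclophosphamide that needs no activation by the liver. The control embryos were cultured at 37 °C without the drug. The labels name neither strain nor stage, nor how many embryos made up an RNA sample. Every one of the 40 2-colour arrays carried RNA of treated embryos in one channel and RNA of control embryos in the other. Each array design had 20 arrays from 5 replicates, and each replicate had 4 arrays. These were 2 slides of opposite channel orientation, each read out in a plain and a B version. Precision is limited by how few replicates there are. The labels do not say that replicates came from separate cultures, so the spread between them may be technical.

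All values are log2 ratios of treated over control, relative to the median of each array. The value of a replicate is the mean of both orientations, and SD is taken over the 5 replicates. The numerator of the deposited ratio is not stated, and channel 1 over channel 2 was assumed. With this reading the p53 target Ccng1 lay above 0 in all 38 values of its probes on array design 1 and in all 20 on array design 2, so the arrays ran the same way relative to their labels. Some arrays of one orientation nevertheless correlated below −0.3 over all probes, 1 of 40 pairs of arrays with treated embryos in channel 1 on array design 1 and 5 of 40 pairs with control embryos in channel 1 on array design 2, down to r = −0.541. These correlations do not tell which channel is the numerator. As the numerator is not stated, the direction is likely but not settled. With the other numerator every sign below turns, so that the mean of Btg2 would be as far below 0 as it is given above it, and the ranks run from the lowest. Centring matters on both designs, since it moved the mean ratio of all probes by 0.24 on array design 1 and by 0.43 on array design 2. RNA of whole embryos cannot tell fewer cells of a type from less RNA per cell.

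As background, Mapk14 encodes p38 alpha, the main stress-activated kinase of the p38 family, which kinases of the MAP2K layer switch on by phosphorylation. Active p38 alpha phosphorylates the kinase MK2, the product of Mapkapk2, which is not itself a p38 kinase. MK2 phosphorylates proteins of the ZFP36 family, among them the product of Zfp36l1. These zinc finger proteins bind AU-rich elements of mRNAs and bring in the CCR4-NOT deadenylase. When MK2 has phosphorylated them they bind 14-3-3 proteins and decay of their targets slows. Btg2 is a p53 target that slows proliferation, and its protein binds the deadenylase subunits CNOT7 and CNOT8. The pathway thus acts through phosphorylation, which RNA ratios do not measure.

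The 250 bases upstream of the RefSeq transcript starts of Btg2 and Zfp36l1 are shown because these are the 2 early response genes of the set. Each window also held a match to a searched motif of factors that stress kinases phosphorylate, in Zfp36l1 only to a loose pattern. Capitals mark the match. Both genes lie on the minus strand and the sequences read 5′ to 3′ in the direction of transcription, from RefSeq, build GRCm38.p6. The window of Btg2 is chr1:134079156-134079405 and that of Zfp36l1 is chr12:80113014-80113263.
Btg2: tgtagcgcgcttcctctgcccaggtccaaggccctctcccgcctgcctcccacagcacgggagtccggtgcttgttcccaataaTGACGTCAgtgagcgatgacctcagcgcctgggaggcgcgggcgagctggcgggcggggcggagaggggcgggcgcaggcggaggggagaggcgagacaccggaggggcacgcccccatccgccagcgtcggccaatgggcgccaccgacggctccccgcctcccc
Zfp36l1: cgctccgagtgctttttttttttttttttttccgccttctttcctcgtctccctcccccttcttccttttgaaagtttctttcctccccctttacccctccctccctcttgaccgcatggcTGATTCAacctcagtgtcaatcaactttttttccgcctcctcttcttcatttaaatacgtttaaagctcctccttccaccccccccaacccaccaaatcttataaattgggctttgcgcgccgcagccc

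On both strands, 4 motifs were searched. The Btg2 window held 1 cAMP response element (TGACGTCA), from 166 to 159 bases before the start, a motif found in 1.55% of 32851 such windows of all genes. The Zfp36l1 window held 1 match to a loose AP-1 pattern (TGANTCA), from 129 to 123 bases before the start. It reads TGATTCA, with T at the middle base, where the pattern allowed any base. Such a match was found in 6.75% of the 32851 windows. The only other match was a p53 decamer in the window of Mapkapk2, which 7.13% of all windows hold, and the serum response CArG box had no match in the 5 windows of the 4 genes. A match is a run of letters and not a bound site, and no binding was measured here.

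Btg2 had the largest ratio of the 4 genes. Its log2 ratios in replicates 1 to 5 were 0.89, 0.57, 1.20, 2.36 and 0.39, so all 5 lay above 0 and replicate 4 stood far above the others. The mean was 1.08 ± 0.78 (SD, n = 5), a 2.12-fold higher level in treated embryos. Only 3 of 7680 probes of array design 1 had a higher mean, 2 of them the probes of Ccng1. The SD of Btg2 was also among the widest, since 99.7% of the probes had a smaller one.

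The high value of replicate 4 came from 1 readout. On the slide with control embryos in channel 1, the B readout gave Btg2 a log2 ratio of 6.87, while the plain readout of the same slide gave 1.33. The other slide of that replicate gave 0.75 and 0.49. The B readout concerned lacked 786 of its 7680 values (10.2%) and had the widest spread of all arrays. Without it replicate 4 had a log2 ratio of 0.98 and lay within the range of replicates 1 to 3. The mean of Btg2 was then 0.81 ± 0.32 (SD, n = 5), with 7 probes higher. Btg2 was at rank 4 of 7680 from plain readouts alone and at rank 11 from B readouts alone. With treated embryos in channel 1 the mean was 0.69 ± 0.20, and 5.73% of the probes were higher. With control embryos in channel 1 it was 1.47 ± 1.56, and 0.0911% were higher (SD, n = 5 each). Without the failing readout the mean of Btg2 in that orientation was 0.92 ± 0.57, with 0.859% of the probes higher, so most of the gap between the orientations came from this readout.

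Over single arrays, Btg2 lay above 0 on 19 of 20. The lowest value was −0.36, the median 0.77 and the highest the 6.87 described above. Plain readouts were above 0 on all 10 arrays, from 0.35 to 1.87 with a median of 1.09. B readouts ran lower, with a median of 0.49 over 10 arrays, and held both the lowest and the highest value. The 2 readouts of a slide differed by a median of 0.65 for Btg2, against 0.18 for Zfp36l1, 0.11 for Mapk14 and 0.40 for Mapkapk2.

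**Figure D1:**
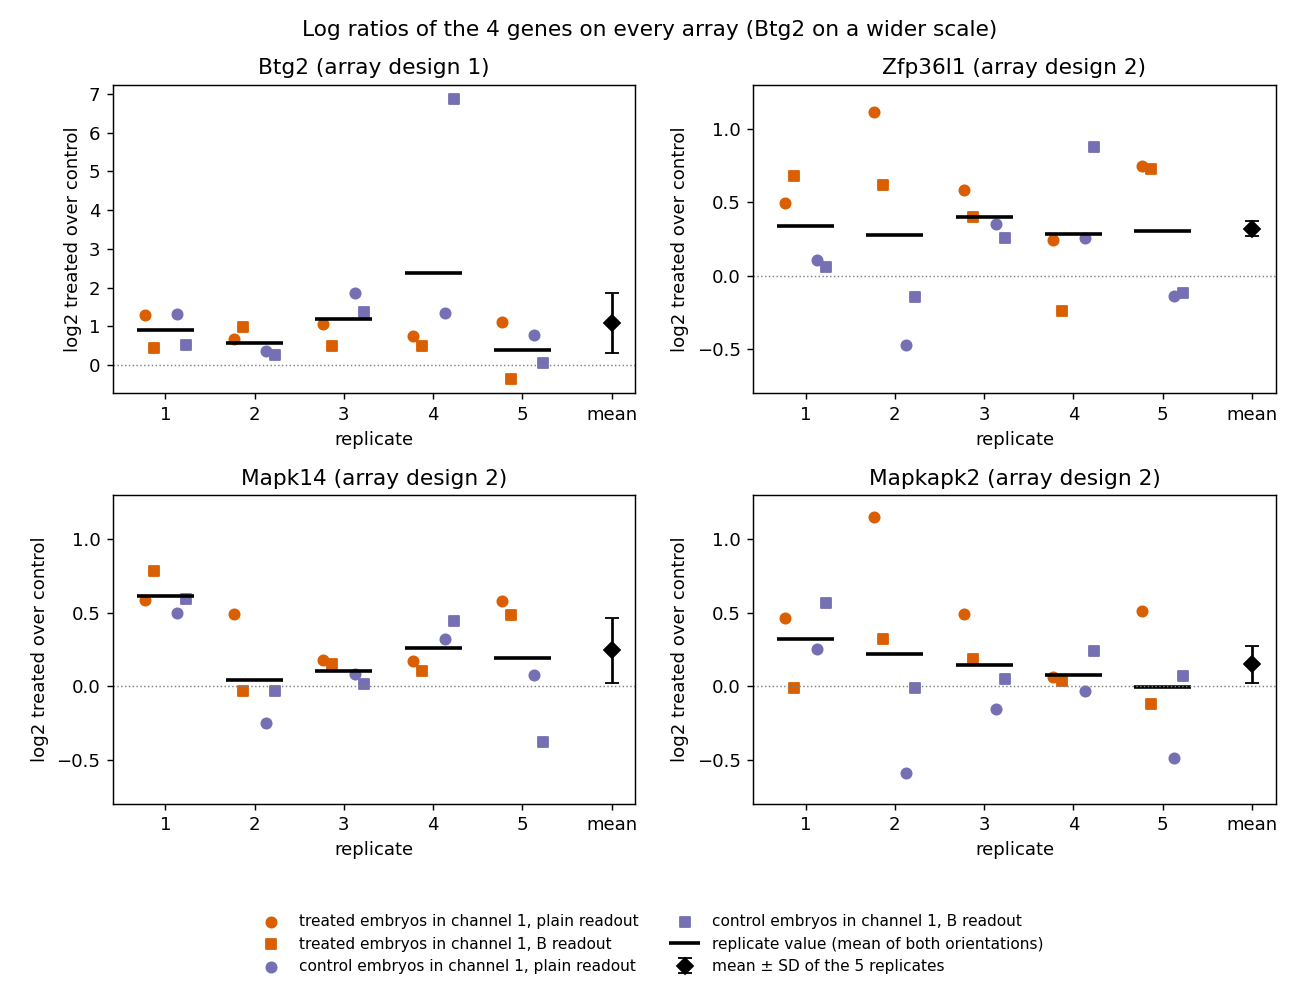
Log2 ratio of treated over control embryos (vertical axis) by replicate (horizontal axis) for the 4 genes, with circles for plain and squares for B readouts, orange for treated and violet for control embryos in channel 1, black bars for replicate values and diamonds for the mean ± SD of the 5 replicates. A single B readout of replicate 4 carries Btg2 to 6.87, and in Zfp36l1 the orientations lie apart while the replicate values stay between 0.28 and 0.40.

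Zfp36l1 had the most even values. Its log2 ratios in replicates 1 to 5 were 0.34, 0.28, 0.40, 0.29 and 0.30, all above 0. The mean was 0.32 ± 0.05 (SD, n = 5), a 1.25-fold higher level in treated embryos, and 4.72% of 7599 probes had a higher mean. Its SD was smaller than that of all but 3.78% of the probes.

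This evenness arose only after both orientations of Zfp36l1 were averaged. With treated embryos in channel 1 its log2 ratios in replicates 1 to 5 were 0.59, 0.87, 0.49, 0.0049 and 0.74. With control embryos in channel 1 they were 0.085, −0.31, 0.31, 0.57 and −0.13. The replicates high in one orientation were thus low in the other, and the means of the orientations, 0.54 ± 0.33 and 0.10 ± 0.35 (SD, n = 5 each), were far wider than the combined value. Over single arrays, 15 of 20 lay above 0, from −0.47 to 1.11 with a median of 0.31.

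Mapk14, the gene of p38 alpha, had log2 ratios of 0.62, 0.04, 0.11, 0.26 and 0.19 in replicates 1 to 5. All lay above 0, replicate 1 well above the rest and replicate 2 close to 0. The mean was 0.24 ± 0.22 (SD, n = 5), a 1.18-fold higher level in treated embryos, and 9.82% of the probes had a higher mean. Without replicate 1 it was 0.15 ± 0.09 (SD, n = 4). Over single arrays, 16 of 20 lay above 0, from −0.38 to 0.79 with a median of 0.17.

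Mapkapk2, the gene of MK2, had the smallest ratio. Its log2 ratios in replicates 1 to 5 were 0.32, 0.22, 0.14, 0.08 and −0.0085, so 4 of 5 lay above 0. The mean was 0.15 ± 0.13 (SD, n = 5), a 1.11-fold higher level in treated embryos, and 20.9% of the probes had a higher mean. With control embryos in channel 1 alone the mean was −0.01 ± 0.28 (SD, n = 5), and 5 of those 10 arrays lay above 0. Of all 20 arrays 13 did, from −0.59 to 1.16 with a median of 0.07.

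In order of their means the genes ran Btg2, Zfp36l1, Mapk14 and Mapkapk2. The replicate values of each neighbouring pair in that order overlapped, those of Btg2 and Zfp36l1 only through the lowest value of Btg2 (0.39) and the highest of Zfp36l1 (0.40). Without centring of the arrays Zfp36l1, Mapk14 and Mapkapk2 had means of −0.11, −0.19 and −0.28, while Btg2 kept a mean of 0.84. Their ranks did not move. The 3 genes of array design 2 were therefore higher in treated embryos only relative to the median probe.

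**Figure D2:**
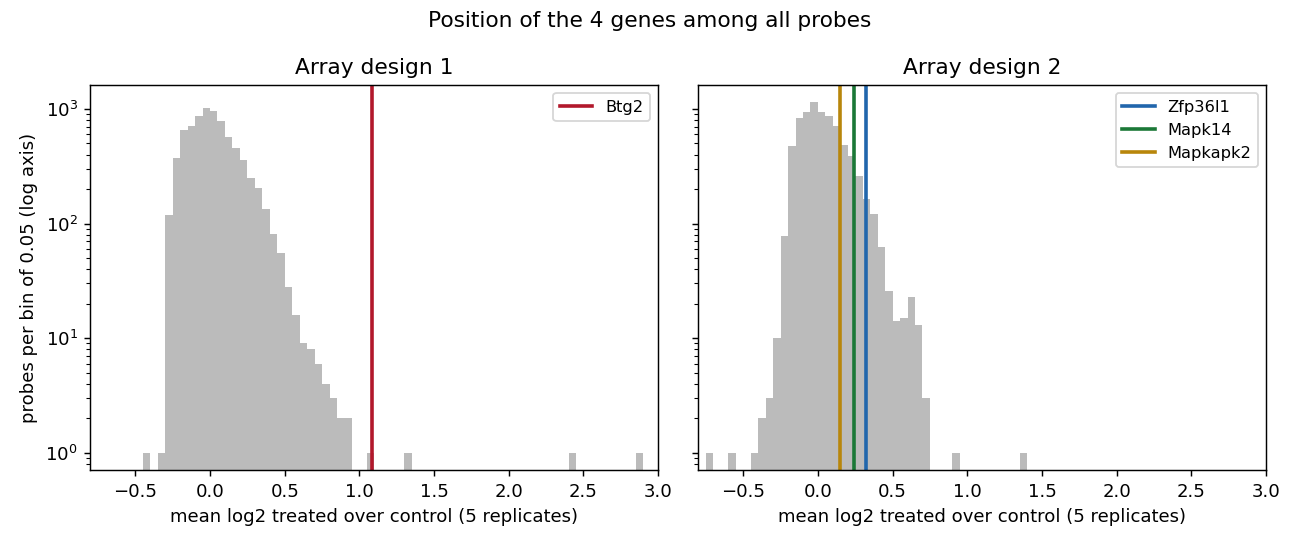
Number of probes (vertical log axis, bins of 0.05) by mean log2 ratio of treated over control embryos over 5 replicates (horizontal axis), for each array design, with coloured lines at the 4 genes. Btg2 at 1.08 lies beyond the bulk of array design 1, while Zfp36l1 at 0.32, Mapk14 at 0.24 and Mapkapk2 at 0.15 lie in the upper part of the bulk of array design 2.

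In a fit across all probes (limma, Benjamini-Hochberg adjusted p under 0.05), 19.8% of the probes of array design 2 passed as higher and 8.07% as lower. On array design 1 these shares were 0.638% and 0.013%. This contrast chose the 4 genes, so their own calls in it are not given.

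Ratios also went along with the dye profile of the probes, the part of the ratios that does not turn with the orientation. A smooth curve on that profile held 34% to 81.5% of a replicate's variance on array design 1, and 35.3% to 61.6% on array design 2. With the trend removed the means were 0.61 ± 0.41 for Btg2, 0.15 ± 0.09 for Zfp36l1, 0.14 ± 0.15 for Mapk14 and 0.03 ± 0.10 for Mapkapk2 (SD, n = 5 each). All 4 means were smaller than before, but places among the probes did not all fall. For Zfp36l1 5.32% of the probes were then higher, against 4.72% before, and for Mapk14 6.34%, against 9.82%. Among all probes 0.56% then passed as higher and 0.221% as lower on array design 1, and for array design 2 these shares were 3.15% and 1.88%. Mapkapk2 lay nearer the middle, with 33.3% of the probes higher. Btg2 was then at rank 11 of 7680, with log2 ratios of 0.76, 0.46, 1.11, 0.72 and −0.01 in replicates 1 to 5. The largest change of Btg2 was in replicate 4, from 2.36 to 0.72, the replicate with the failing readout. The trend was not refitted without that readout. Treatment and dye parts come from the same arrays, and how much of the trend belongs to the treatment was not tested.

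Measures that the choice of the genes did not use were tested in the same way. The dye part, the mean of both orientations without turning, was −0.39 ± 0.79 for Btg2 (SD, n = 5, limma adjusted p = 0.27), 0.22 ± 0.33 for Zfp36l1 (limma adjusted p = 0.447), 0.11 ± 0.17 for Mapk14 (limma adjusted p = 0.647) and 0.16 ± 0.24 for Mapkapk2 (limma adjusted p = 0.517). None of the 4 passed, against 16.2% of the probes on array design 1 and 0% on array design 2, where 1431 of 7599 had an unadjusted p under 0.05. For Btg2 the same B readout sets the dye part of replicate 4, which was −1.74, and without it the mean dye part was −0.11 ± 0.28 (SD, n = 5, limma adjusted p = 0.484).

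The slides belong to 2 numbered series, and the ratio of a gene was compared between them. In the 3000 series Btg2 averaged 1.32 ± 0.99 (SD, n = 3) and in the 2000 series 0.73 ± 0.23 (SD, n = 2), with limma adjusted p = 0.999 for the difference. Without the failing readout the 3000 series had a mean of 0.86 ± 0.42 for Btg2. Mapkapk2 averaged 0.03 ± 0.06 (SD, n = 2) in the 3000 series and 0.23 ± 0.09 (SD, n = 3) in the 2000 series, with limma adjusted p = 0.593. Zfp36l1 had means of 0.30 in the 3000 series and 0.34 in the 2000 series, and Mapk14 had 0.22 and 0.26 (limma adjusted p = 0.934 and 0.97). No probe of either design passed this comparison in limma (0% called), with 142 probes of array design 1 and 719 of array design 2 at an unadjusted p under 0.05. Replicates this few leave the series difference of the 4 genes poorly bounded.

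**Figure D3:**
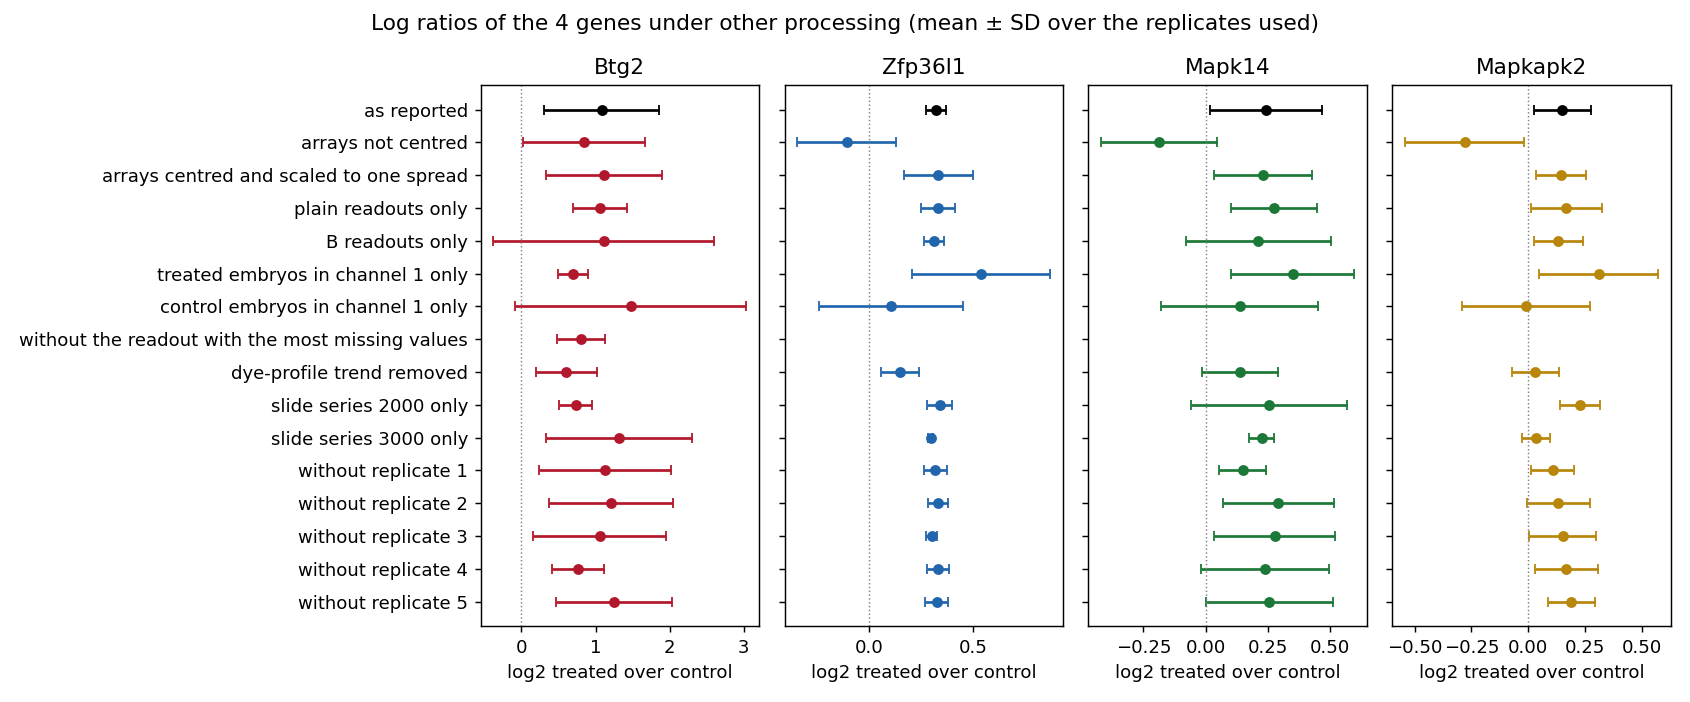
Mean log2 ratio of treated over control embryos (horizontal axis, with SD over the replicates used) of the 4 genes under each way of processing (vertical axis), the value as reported in black. Btg2 stays above 0 throughout, while Zfp36l1, Mapk14 and Mapkapk2 fall below 0 when arrays are not centred, to −0.11, −0.19 and −0.28.

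The genes around the 4 were described through 11 lists of the p38 pathway, its neighbours, and mRNA decay. Of 196 listed genes, 68 were measured on array design 1 and 59 on array design 2. No list gene passed in limma on array design 1, where 1.38% of all genes passed as higher and 0.0521% as lower. There 19 had an unadjusted p under 0.05. Without the failing readout 10 list genes rose and none fell, but 781 of 7680 probes then passed as higher and 443 as lower. The shares of all genes just given belong to the fit with all readouts. On array design 2, 16 rose (27.1%) and 3 fell (5.08%), against 21.8% and 7.56% of all genes that rose and fell there. List genes had median log2 ratios of 0.04 on array design 1 and 0.05 on array design 2, against 0.02 and 0.03 over all genes. With the dye-profile trend removed 1 list gene rose, Ppm1d, and 2 fell, Hnrnpa0 and Pum2, both named after their values were seen. Over all genes of array design 1, 0.886% then passed as higher and 0.313% as lower. The shares for array design 2 were 4.37% and 2.9%.

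Upstream of p38, array design 2 held 5 activating kinases and adaptors, of which 1 rose and none fell, against 21.8% and 7.56% of all genes. It was Cdc42, a small GTPase, at 0.29 ± 0.09 (SD, n = 5, limma adjusted p = 0.00015), and 0.07 with the trend removed. None of 9 passed on array design 1, and 2 had an unadjusted p under 0.05. The smallest p there was that of the GTPase Rac1 at 0.31 ± 0.17 (SD, n = 5, limma adjusted p = 0.0598). Rac1 passed there without the failing readout (limma adjusted p = 0.00888), where 781 of 7680 probes passed as higher. The median of the list was 0.10 on array design 2, against 0.04 on array design 1.

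Other p38 isoforms and kinases below p38 had 3 measured genes on array design 2, where 21.8% of all genes rose and 7.56% fell. Mapk13, the gene of p38 delta, rose by 0.16 ± 0.20 and Rps6ka5, which encodes the kinase MSK1, fell by 0.16 ± 0.16 (SD, n = 5 each, limma adjusted p = 0.0468 and 0.0377). The rise of Mapk13 rested on replicate 1 at 0.51, since replicates 2 to 5 lay between 0.04 and 0.09, and its value without replicate 1 was 0.07. The call ended without replicate 1 and also without replicate 2. That of Rps6ka5 ended without replicate 1, 2 or 3, and its value was −0.094 without replicate 3. Mapkapk5 on array design 1 had 0.06 ± 0.23 and did not pass (limma adjusted p = 0.664).

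Among substrates of the pathway, 1 of 6 rose and none fell on array design 2, against 21.8% and 7.56% of all genes. It was Hspb1, the small heat shock protein that MK2 phosphorylates, at 0.34 ± 0.44 (SD, n = 5, limma adjusted p = 0.00624). Replicate 3 gave 1.12 and the other replicates 0.04 to 0.23, so that the mean without replicate 3 was 0.15. The call ended without replicate 3 and also without replicate 1. Neither of the 2 substrates on array design 1 passed, nor did either have an unadjusted p under 0.05. Mef2d, a transcription factor activated by p38, had the smallest p there at 0.07 ± 0.18 (limma adjusted p = 0.543).

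Of the phosphatases that switch MAP kinases off, 2 of 6 rose and 1 fell on array design 2, where 21.8% of all genes rose and 7.56% fell. Ppm1d, a p53 target whose phosphatase acts on p38 and on p53, rose by 0.34 ± 0.09 (SD, n = 5, limma adjusted p = 1.61e-05). With the trend removed it had 0.38 (limma adjusted p = 0.000132). Dusp14 rose by 0.16 ± 0.14 and Ppm1b fell by 0.14 ± 0.07 (SD, n = 5, limma adjusted p = 0.0285 and 0.0407), and the call of Ppm1b ended without any one of the 5 replicates and that of Dusp14 without replicate 1, 2 or 3. None of 4 passed on array design 1, where 2 had an unadjusted p under 0.05 and Ppm1a led with 0.23 ± 0.20 (limma adjusted p = 0.103).

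Of the JNK and ERK kinases, which run beside p38, 3 of 8 rose and none fell on array design 2, against 21.8% and 7.56% of all genes. Mapk6 had 0.20 ± 0.07, Braf 0.23 ± 0.26 and Map3k3 0.16 ± 0.15 (SD, n = 5, limma adjusted p = 0.00532, 0.0109 and 0.0313). Braf was above 0 in 3 of 5 replicates, and its call ended without replicate 1, at 0.15, and without replicate 2. The call of Map3k3 ended without replicate 1, 2 or 4. None of 7 passed on array design 1 and 1 had an unadjusted p under 0.05, Map3k12 at 0.38 ± 0.27 (limma adjusted p = 0.062). Map3k12 passed there without the failing readout (limma adjusted p = 0.0105), where 781 of 7680 probes passed as higher.

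Relatives of Btg2 had small ratios. Btg1, like Btg2 an antiproliferative gene, rose on array design 2, by 0.14 ± 0.08 (SD, n = 5, limma adjusted p = 0.0497). Btg4, known from oocytes, fell there by 0.18 ± 0.15 (limma adjusted p = 0.017) and had −0.06 ± 0.06 on array design 1 (limma adjusted p = 0.479). The call of Btg1 ended without any one of the 5 replicates, and that of Btg4 without replicate 1 or 3. These were the only relatives of the BTG and TOB family measured, and of all genes on array design 2 21.8% rose and 7.56% fell.

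Deadenylation and decay genes encode the machinery that BTG and ZFP36 proteins bind. On array design 2, 2 of 9 deadenylation genes rose and none fell, a share near the 21.8% of all genes that rose. Cnot9, a CCR4-NOT subunit, had 0.27 ± 0.09 and Paip2, an inhibitor of the poly(A)-binding protein, had 0.15 ± 0.07 (SD, n = 5, limma adjusted p = 0.000302 and 0.0308), against 0.08 and −0.02 with the trend removed. The call of Paip2 ended without replicate 1, 2, 3 or 4. None of 8 passed on array design 1 and 3 had an unadjusted p under 0.05, with Pabpc1 at 0.37 ± 0.20 (limma adjusted p = 0.0573). Pabpc1 passed there without the failing readout (limma adjusted p = 0.00503), where 781 of 7680 probes passed as higher. Of decapping and exonuclease genes none of 12 passed on array design 1 and none of 5 on array design 2, with 2 and 1 at an unadjusted p under 0.05. Lsm2 led on array design 1 at 0.27 ± 0.20 (limma adjusted p = 0.0739) and Exosc8 on array design 2 at 0.12 ± 0.14 (limma adjusted p = 0.106). Lsm2 also passed in that fit without the failing readout (limma adjusted p = 0.0291).

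A list of AU-rich element binding proteins, besides Zfp36l1, also held proteins that bind other mRNA elements, such as Pum2. Of this list 2 of 5 rose and none fell on array design 2, against 21.8% and 7.56% of all genes. Ybx1 had 0.33 ± 0.06 and Tia1, a translational repressor, 0.30 ± 0.15 (SD, n = 5, limma adjusted p = 2.41e-05 and 0.000208), against 0.03 and 0.19 with the trend removed. None of 9 passed on array design 1, where 1 had an unadjusted p under 0.05, Ybx1 at 0.19 ± 0.09 (limma adjusted p = 0.0688). Ybx1 passed there without the failing readout (limma adjusted p = 0.0466), where 781 of 7680 probes passed as higher. Zfp36l2, the paralogue of Zfp36l1 and named after its value was seen, had −0.0074 ± 0.12 on array design 1 (limma adjusted p = 0.946).

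The 14-3-3 proteins, which bind phosphorylated ZFP36 proteins, had the highest medians of the 11 lists, 0.29 on array design 1 and 0.25 on array design 2. On array design 2, 3 of 5 rose and none fell, against 21.8% and 7.56% of all genes. Ywhae rose by 0.28 ± 0.05, Ywhab by 0.26 ± 0.12 and Ywhaq by 0.25 ± 0.11 (SD, n = 5, limma adjusted p = 0.000165, 0.000703 and 0.000913). None of 6 passed on array design 1, although 5 had an unadjusted p under 0.05, with Ywhab at 0.37 ± 0.19 (limma adjusted p = 0.0541). Ywhab passed there without the failing readout (limma adjusted p = 0.00449), where 781 of 7680 probes passed as higher. With the trend removed the medians were 0.04 and −0.05, and no 14-3-3 gene passed.

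Immediate early genes, a class with which Btg2 and Zfp36l1 are often grouped, did not pass on either design, with 9 measured on array design 1 and 5 on array design 2. The medians were 0.02 and −0.0084, and 3 and 1 of them had an unadjusted p under 0.05. Atf3 led on array design 1 at −0.15 ± 0.05 (SD, n = 5, limma adjusted p = 0.0969) and Fosl2 on array design 2 at −0.12 ± 0.14 (limma adjusted p = 0.108).

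**Figure D4:**
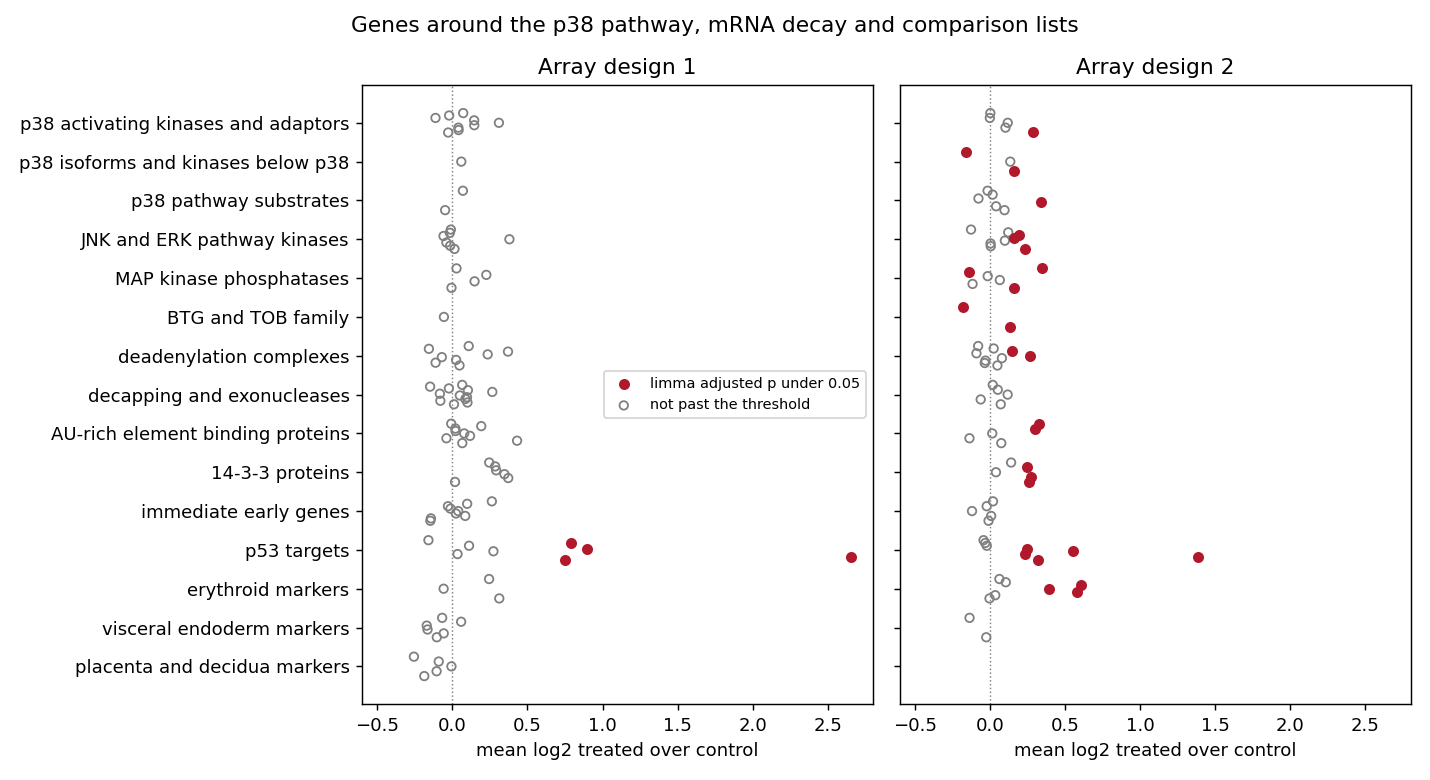
Mean log2 ratio of treated over control embryos (horizontal axis) of every measured gene of 15 lists (vertical axis) on each array design, filled red where limma's adjusted p was under 0.05. On array design 1 the 4 filled points are p53 targets, and on array design 2 the filled points of the p38 and mRNA decay lists lie between −0.18 and 0.34.

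As a p53 target, Btg2 was set beside 8 others on each design. Of all genes 1.38% rose and 0.0521% fell on array design 1, and 21.8% and 7.56% on array design 2. On array design 1, 4 rose and none fell, led by Ccng1 at 2.65 ± 0.37, Aen, an apoptosis nuclease, at 0.75 ± 0.12 and Rps27l, a ribosomal protein paralogue, at 0.79 ± 0.25 (SD, n = 5, limma adjusted p = 5.05e-05, 0.00142 and 0.0158). The call of Rps27l ended without replicate 3 or 5. The value of Btg2 without the failing readout, 0.81, lay near those of Aen and Rps27l, and also of Mdm2, the ubiquitin ligase of p53, at 0.90 ± 0.33 (named after its value was seen). Those 3 values include the failing readout, so the comparison is not like for like. The other 4 targets did not pass and lay lower, Tigar at −0.16, Ddb2 at 0.03, Perp at 0.11 and Fas at 0.27 (named after their values were seen). On array design 2, 5 rose and none fell, among them Ccng1 at 1.39 ± 0.40, the G2-phase gene Gtse1 at 0.56 ± 0.20 and Aen at 0.32 ± 0.08 (limma adjusted p = 7.32e-12, 1.64e-07 and 3.99e-05). The direction of the ratios was read in part from such targets, so their sign is no finding.

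The probes whose 10 values (5 replicates by 2 orientations) lay nearest to each gene were found among single-gene probes of the same design. For Btg2 they were Tagln2, Cdc25a and Lrrfip1, at root mean square distances of 0.51 to 0.60 on the log2 scale, against a median of 1.52 over 4748 probes. For Zfp36l1 they were Vdac1, Slc25a3 and Tsg101, at 0.14 to 0.16, against a median of 0.58 over 4854 probes. For Mapk14 they were Tfg, Polr2g and Ube2q1, at 0.14, against 0.49. For Mapkapk2 they were Kdm7a, Coa3 and Ubr7, at 0.07 to 0.12, against 0.47. Tagln2, Cdc25a and Lrrfip1 had wide SDs like Btg2, with means of 0.67 ± 0.83, 0.63 ± 0.88 and 0.61 ± 0.62 (SD, n = 5). All 3 were also high in replicate 4 with control embryos in channel 1, the value that the failing readout sets, at 3.16 to 4.00 against 4.10 for Btg2. Without that readout the nearest probes of Btg2 were Aen, Carhsp1 and Hmox1, at distances of 0.37 to 0.43 against a median of 0.94, and none of the first 3 was among them. This alternative was chosen after seeing the data. Likeness of this kind rests on arrays that all these probes share.

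The only cell type markers that passed on array design 2 were globins. Of 7 erythroid markers 3 rose there, the globins Hbb-y at 0.61 ± 0.21, Hba-x at 0.58 ± 0.23 and Hbb-b1 at 0.39 ± 0.17 (SD, n = 5, limma adjusted p = 5.95e-08, 1.67e-07 and 1.08e-05), and the other 4 lay between −0.0018 and 0.11. Of all genes 21.8% rose on this design. With the trend removed Hbb-y had 0.33 (limma adjusted p = 0.0145), while Hba-x had 0.23 and Hbb-b1 0.19 and neither passed (limma adjusted p = 0.0693 and 0.0855). None of 3 erythroid markers passed on array design 1, where 2 had an unadjusted p under 0.05 and Tfrc had 0.24 ± 0.19 (limma adjusted p = 0.0791). Tfrc passed there without the failing readout (limma adjusted p = 0.0459), where 781 of 7680 probes passed as higher. No visceral endoderm marker passed, of 6 on array design 1 with Fga at −0.17 ± 0.10 and of 2 on array design 2 with Lrp2 at −0.13 ± 0.09 (limma adjusted p = 0.0914 and 0.0533), and 2 and 1 of them had an unadjusted p under 0.05. No placenta or decidua marker of 5 passed on array design 1, with 2 at an unadjusted p under 0.05 and Prl8a2 at −0.26 ± 0.12 (limma adjusted p = 0.0613). Ratios do not give the level of a marker in either group, and the part of these cells in the ratios of the 4 genes was not tested.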

How the data were processed

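The authors deposited 1 table per array design, with log2 ratios of the 2 channels of each spot. Base 2 was inferred: in the readout with most missing values, the values below −3 exceeded that limit by a mean of 1.46 ± 0.079 (SE), those below −4 by 1.53 ± 0.12 and those below −5 by 1.74 ± 0.17, against 1.44 expected for base 2 and 1 for the natural log. The expected values rest on an assumed shape of that tail, which was not checked, so base 2 is likely but not settled. Image software, background correction and normalization were not given in the sources used here; array medians ran from −1.73 to 1.69. Probes were named through the platform annotation (4749 and 4935 with 1 symbol, 227 and 275 with several, 2704 and 2470 with none). Symbols were checked against the GRCm38.p6 gene table, which matched 4712 and 4884 and changed none.

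Arrays were centred on their median, spots of one accession averaged (7680 and 7599 probes), ratios turned to treated over control, and both readouts and then both orientations averaged. Probes, and genes as means of their probes, were set against 0 in a two-sided limma fit (limma 3.58.1, R 4.3.3) within each design, and an adjusted p (Benjamini-Hochberg) under 0.05 counted as passing. The dye trend was fitted per replicate with mgcv 1.9.3 on 3 principal components of the dye part. The 4 genes, the lists (p38 activators, p38 isoforms and kinases below, substrates, JNK and ERK kinases, phosphatases, BTG and TOB, deadenylation, decapping, AU-rich and other mRNA element binding, 14-3-3, immediate early, p53 targets, 3 marker lists) and the tests were chosen with earlier results of these data known. Named per list and design are up to 3 passing genes with the smallest p, or else the 1 with the smallest p, and for each of the 4 genes the 3 nearest profiles.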

Additional observations from a re-analysis of the deposited data

Results flagged for a closer look

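Of 49 results with 5 replicate values, 3 had a sample far from the others, judged by the gap to the nearest value divided by the whole range against Dixon's critical value of 0.71. Chance gives about 1 in 20 such results. All 3 were on array design 2. Mapk13 had a ratio of gap to range of 0.893, since replicate 1 had a log2 ratio of 0.51 and the other replicates 0.04 to 0.09. Hspb1 had 0.83, since replicate 3 had a log2 ratio of 1.12 and the others 0.04 to 0.23. The globin Hbb-b1 had 0.713, since replicate 2 had a log2 ratio of 0.69 and the others 0.29 to 0.40. The cause was not tested.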

How the results depend on the processing

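Over the alternatives run, Btg2 kept a log2 ratio above 0, and from 0.76 to 1.26 when any one replicate was left out. Those ranges were 0.30 to 0.33 for Zfp36l1, 0.15 to 0.29 for Mapk14 and 0.11 to 0.19 for Mapkapk2. Without centring the ratios were −0.11 for Zfp36l1, −0.19 for Mapk14 and −0.28 for Mapkapk2. With treated embryos in channel 1 alone Zfp36l1 had 0.54 and Mapkapk2 0.31, with control embryos in channel 1 alone 0.10 and −0.011, and Zfp36l1 had 0.15 with the dye-profile trend removed.

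On array design 1, 50 probes and 4 genes of all the lists passed. These counts were 4615 and 50 without centring, 345 and 8 with arrays scaled to one spread, 501 and 12 from plain readouts, 3 and 1 from B readouts, 2324 and 25 with treated embryos in channel 1, 1108 and 20 with control embryos in channel 1, 1224 and 19 without the failing readout, and 890 and 16 from single arrays with a replicate block. With the slide series as a term 12 probes passed, and leaving out one replicate gave 7 to 82 probes (82 without replicate 4) and 2 to 7 list genes. On array design 2, 2114 probes and 27 list genes passed. These were 6655 and 59 without centring, 1331 probes with arrays scaled to one spread, 1076 and 17 from plain readouts, 1190 and 16 with treated embryos in channel 1, 117 and 2 with control embryos in channel 1, 382 and 7 with the trend removed, and 1013 to 2637 and 17 to 28 with one replicate left out (1013 and 17 without replicate 1). The dye part passed for 803 to 1115 probes on array design 1 (1243 with all replicates, 803 without replicate 1) and for 0 to 1024 on array design 2 (1024 without replicate 2). The slide series difference passed for 0 to 1 (without replicate 3) and 0 to 48 probes (48 without replicate 3, 15 without replicate 4). Without centring nearly all calls were lower. On array design 1, 4596 probes were lower and 19 higher, against 1 lower and 49 higher with centring. Of the list genes there, 46 were lower and 4 higher. On array design 2, 6634 probes were lower and 21 higher, against 613 lower and 1501 higher with centring. Of the list genes there, 58 were lower and 1 higher. The cause of these shifts was not tested.

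Among named list genes, signs turned without centring on array design 1 for Ybx1 (−0.083), Ppm1a (−0.013), Rac1 (−0.0028), Mapkapk5 (−0.18) and Mef2d (−0.17). On array design 2 they did for Ywhae (−0.15), Ywhab (−0.17), Ywhaq (−0.18), Ybx1 (−0.10), Tia1 (−0.13), Btg1 (−0.29), Mapk6 (−0.23), Braf (−0.20), Map3k3 (−0.27), Ppm1d (−0.085), Dusp14 (−0.27), Cnot9 (−0.16), Paip2 (−0.28), Exosc8 (−0.31), Hbb-b1 (−0.035), Cdc42 (−0.14), Mapk13 (−0.27), Hspb1 (−0.088) and Aen (−0.11). Treated embryos in channel 1 alone turned Ybx1 (−0.11) and Pabpc1 (−0.10) on array design 1 and Ywhae (−0.10), Ybx1 (−0.10) and Paip2 (−0.0014) on array design 2. Control embryos in channel 1 alone turned Zfp36l2 (0.073), Btg4 (0.11), Atf3 (0.14), Mapkapk5 (−0.76), Mef2d (−0.44), Prl8a2 (0.025) and Fga (0.25) on array design 1 and Braf (−0.32), Map3k3 (−0.22), Dusp14 (−0.31), Cnot9 (−0.19), Hbb-b1 (−0.025), Fosl2 (0.20), Rps6ka5 (0.21) and Mapk13 (−0.61) on array design 2. Removing the trend turned Btg4 (0.043), Atf3 (0.038) and Fga (0.012) on array design 1 and Ywhae (−0.054), Paip2 (−0.019), Exosc8 (−0.0097) and Mapk13 (−0.049) on array design 2. On array design 1, B readouts alone turned Zfp36l2 (0.12), as did leaving out replicate 1 (range −0.034 to 0.041 with one replicate left out), and Mapkapk5 turned with arrays scaled to one spread (−0.023) and without replicate 3 (range −0.0091 to 0.13).

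Every value is a treated-over-control ratio within arrays, so treated and control RNA are paired throughout. The adjusted p values above come from fits to replicate values, without a block. The fit of single arrays with a replicate block was an alternative. In it 890 probes and 16 list genes passed on array design 1, and 2844 and 35 on array design 2. Missing log base and numerator limit every value, and 5 replicates limit the precision.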
